A study of Mus musculus with 9 samples.

Results

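The 46 genes described here are known parts of a pair of linked stress programmes, the response driven by the transcription factor ATF4 when amino acids run short and the unfolded protein response of the endoplasmic reticulum (ER). They were taken from a list of symbols, 29 for the ATF4 arm and 17 for the ER arm, and matched to the Ensembl identifiers of a table of 21159 mouse genes. The rule names symbols and uses no expression value. Of the 46, 45 had at least 10 counts in 3 or more libraries, 28 in the ATF4 arm and 17 in the ER arm, and the same 45 entered the tests. The member that did not was Cbs, an enzyme that makes cystathionine from homocysteine, with 3, 0 and 0 counts in Runx2ko, 0 in each Runx2wt library and 6, 1 and 2 counts in BM progenitor.

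The measurement was QuantSeq, a method that reads near the 3′ end of polyadenylated RNA, so that levels do not depend on transcript length. All 9 libraries came from lineage-depleted mouse bone marrow (BM) with the genotype Runx2fl/fl and a CreERT2 transgene, in which a floxed Runx2 can be removed after tamoxifen. Runx2ko cells were transformed in culture with a retrovirus for KMT2A-MLLT1 (MLL-ENL), a leukaemia fusion protein, grown in suspension and given the Cre activator 4-hydroxytamoxifen (4-OHT) at 400 nM over 24 hours. Runx2wt cells were transformed in the same way and given ethanol. BM progenitor cells were untreated and were collected from methylcellulose before the first replating, and it is not stated whether they carried the fusion. Each group had 3 libraries, labelled as independent biological replicates; how many mice they came from is not stated. Culture form and passage differ between transformed and BM progenitor cells. Every Runx2ko library had 4-OHT, and with it any Cre activity. None of these can be told apart here from the fusion or from loss of Runx2.

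Library totals were 3118594 to 5348177 counts. Runx2, the targeted gene, was counted with 21.0, 120.1 and 134.7 CPM (read counts scaled to a common library size) in the Runx2ko libraries, 159, 179 and 131 CPM in the Runx2wt libraries and 53.3, 46.7 and 58.8 CPM in the BM progenitor libraries. Which exon was floxed is not stated, and a tag at the 3′ end can be left in place by the deletion, so its loss cannot be read from these values. Runx2ko replicate 1 stood apart. Its log2(CPM + 1) values correlated across genes at 0.811 to 0.832 with the other transformed libraries, which correlated among themselves at 0.941 to 0.964. The 13 mast cell and basophil markers summed to 4221 CPM there, against 44.7 and 479 CPM in the other Runx2ko libraries, 71.9 to 316 CPM in Runx2wt and 1048 to 1197 CPM in BM progenitor. The extraction text of the labels speaks of T-ALL cells, and the 9 T cell markers summed to 9.76 to 34.1 CPM in Runx2ko, 8.31 to 11.1 CPM in Runx2wt and 7.85 to 12.7 CPM in BM progenitor. The 9 stem and progenitor markers summed to 1396, 639 and 794 CPM in Runx2ko, 412 to 758 CPM in Runx2wt and 688 to 773 CPM in BM progenitor. Among them, Cd34 was at 34.6, 1.90 and 6.78 CPM in Runx2ko, 14.7, 1.94 and 3.62 CPM in Runx2wt and 81.0, 83.1 and 76.9 CPM in BM progenitor. Cd34 alone does not stand for the list, whose sum did not fall in the same way. In bulk samples of this kind, fewer cells of a type and less RNA per cell cannot be told apart.

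Both programmes begin at the translation factor eIF2 or at the ER membrane. Kinases that sense missing amino acids, unfolded ER proteins, viral RNA or lack of haem phosphorylate eIF2, which slows most protein synthesis but lets ATF4 mRNA be translated, and ATF4 then switches on amino acid transporters, biosynthetic enzymes and stress regulators. The ER arm has its own sensors, IRE1α (Ern1), PERK (Eif2ak3) and ATF6, and raises chaperones, folding enzymes and degradation factors through spliced XBP1 and cleaved ATF6. PERK links the arms because it phosphorylates eIF2. ATF4 activity is set largely by translation and XBP1 activity by splicing, and neither is read by a count of 3′ tags.

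The DNA elements through which these factors are known to act are shown here because the shares of promoters that hold them differ between the arms. ATF4 pairs with C/EBP factors on the C/EBP-ATF response element (CARE), searched as TGATGNAAN on both strands of RefSeq promoters of GRCm38.p6 that run from 250 bases before a start site to 50 bases from it on. Of the 46 genes, 39 had a promoter in the table, 25 of the ATF4 arm with 29 promoters and 14 of the ER arm with 14. Eif4ebp1, Slc7a5, Slc1a5, Cth, Manf, Hyou1 and Atf6 had none. CARE was found in 8 of 29 promoters of the ATF4 arm (27.6%) and in 1 of 14 of the ER arm, that of Herpud1, against 3.95% of all 32851 promoters. The sites in members whose RNA changed in a comparison below are printed in the direction of the motif, with the motif in capitals and 15 bases on either side, followed by position and printed strand.
Asns: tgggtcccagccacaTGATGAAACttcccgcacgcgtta (chr6:7693209-7693247, minus)
Chac1: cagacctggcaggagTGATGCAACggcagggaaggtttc (chr2:119351033-119351071, minus)
Pycr1: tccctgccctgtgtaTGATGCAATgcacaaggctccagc (chr11:120643828-120643866, minus)
Slc1a4: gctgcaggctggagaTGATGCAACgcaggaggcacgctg (chr11:20332695-20332733, plus)
Slc7a11, first site: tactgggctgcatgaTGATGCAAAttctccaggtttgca (chr3:50443638-50443676, plus)
Slc7a11, second site: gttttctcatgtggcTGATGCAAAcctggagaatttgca (chr3:50443656-50443694, minus)
Trib3: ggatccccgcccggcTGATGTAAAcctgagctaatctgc (chr2:152344024-152344062, plus)
The other promoters with a CARE in the ATF4 arm were those of Nupr1 and Vldlr. The printed Slc7a11 stretches overlap each other, on opposite strands.

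The ER stress element (ERSE), at which ATF6 and XBP1 act with NF-Y, was searched as CCAAT and CCACG with 9 bases between them. It was found in 6 of 14 promoters of the ER arm (42.9%), in none of the ATF4 arm and in 0.119% of all promoters. All 6 belonged to ER chaperones or folding factors, and the other 2 of these, not printed, were Dnajc3 and Calr. Those of Hspa5 and of members discussed below are printed in the same way, with both ends of the element in capitals; Hsp90b1, Pdia6 and Creld2 were chosen after their values were seen.
Hspa5: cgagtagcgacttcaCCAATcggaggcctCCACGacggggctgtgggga (chr2:34772010-34772058, plus)
Hsp90b1, first site: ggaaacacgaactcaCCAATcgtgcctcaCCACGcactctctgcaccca (chr10:86705518-86705566, plus)
Hsp90b1, second site: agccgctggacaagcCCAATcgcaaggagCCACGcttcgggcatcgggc (chr10:86705623-86705671, minus)
Pdia6: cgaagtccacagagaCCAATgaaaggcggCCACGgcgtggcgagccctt (chr12:17266476-17266524, plus)
Creld2: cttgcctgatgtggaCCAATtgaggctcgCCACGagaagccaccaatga (chr15:88819505-88819553, minus)
A related form, ERSE-II, searched as ATTGG and CCACG with 1 base between them, was found in Herpud1 alone among the members and in 0.0365% of all promoters. The XBP1 element TGACGTGG was in no member's promoter and in 0.676% of all. A match is a string of letters and not a shown binding site, and no match says only that these letters are not in the window. The members were listed as known parts of these pathways and the elements are the known ones. A larger share than among all promoters therefore carries no test.

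The ATF4 arm was higher in transformed cells at a set of stress regulators and at some enzymes, and lower at the cystine transporter and the first enzyme of serine synthesis. In Runx2ko against BM progenitor, 10 of 28 members rose and 2 fell at an adjusted p under 0.05, where 10% of 11196 genes rose and 7.14% fell. In Runx2wt against BM progenitor, 6 rose and 2 fell, where 8.28% of genes rose and 5.23% fell. The number that fell was near the share of all genes in both comparisons. The median log2 fold change of the 28 members was 0.73 in Runx2ko and 0.29 in Runx2wt, beside 0.07 and 0.01 over all genes tested. Both comparisons share the BM progenitor libraries. The test was edgeR's quasi-likelihood test with Benjamini-Hochberg adjustment over all genes, and log2 fold changes are given with their standard errors (SE).

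**Figure D1:**
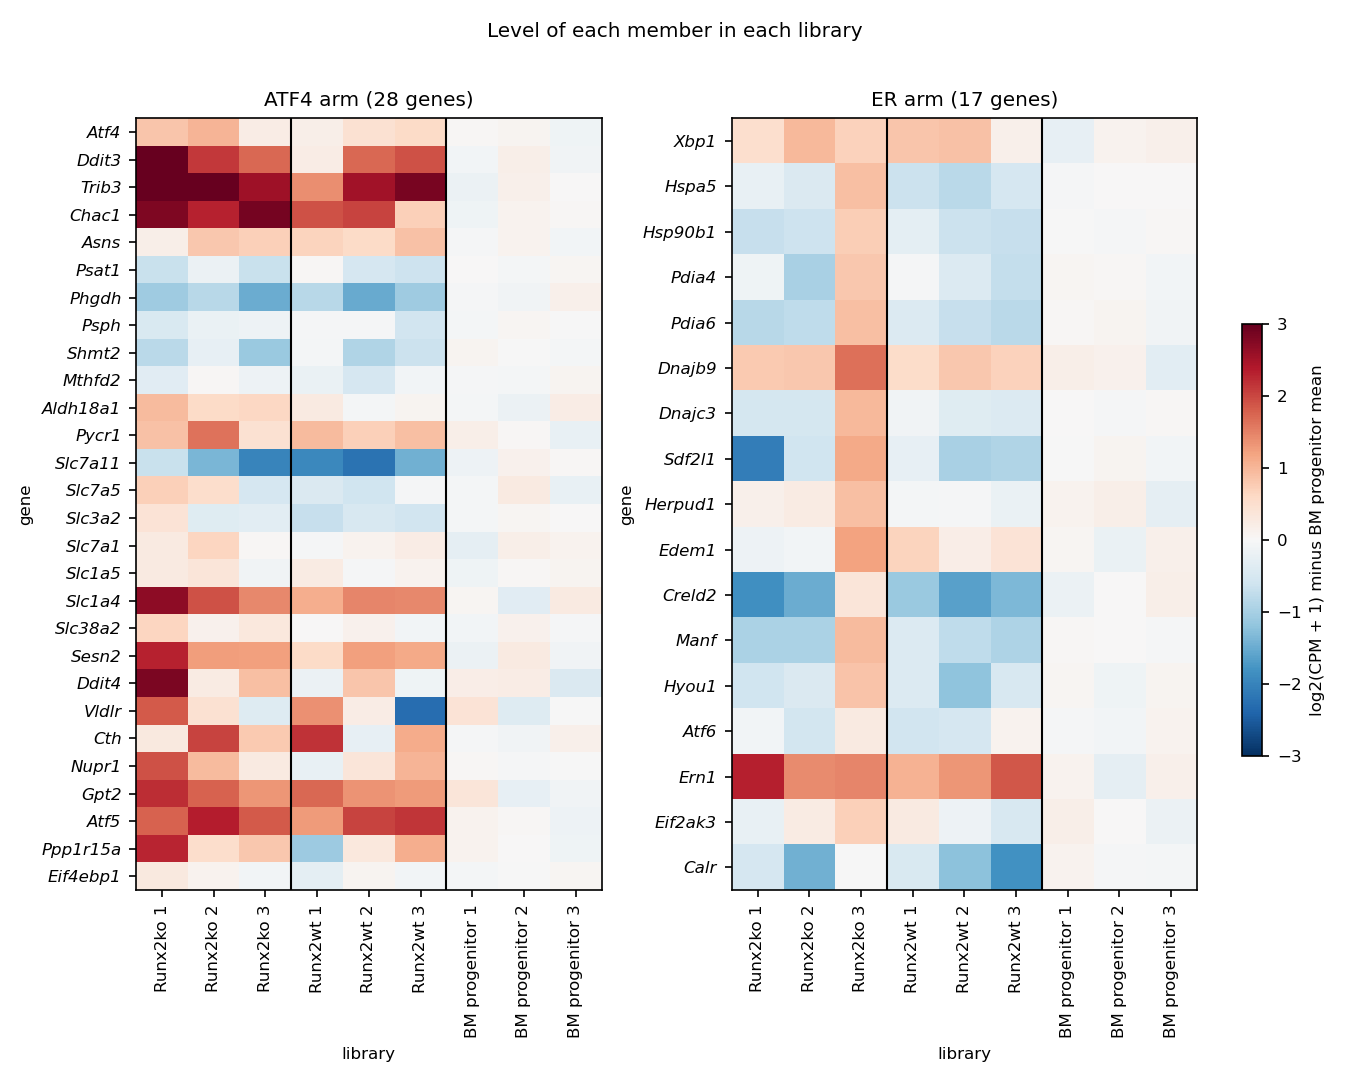
Level of the 28 tested ATF4 arm members (left) and 17 ER arm members (right) in each of 9 libraries, as log2(CPM + 1) minus the mean of BM progenitor, on a colour scale that ends at 3 on either side. Runx2ko replicate 1 holds most of the darkest red in the ATF4 arm, and Runx2ko replicate 3 is red over most of the ER arm.

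Atf4 itself was counted at 1261, 1444 and 826 CPM in Runx2ko, at 798, 973 and 1059 CPM in Runx2wt and 732, 747 and 652 CPM in BM progenitor. All transformed libraries lay above all BM progenitor libraries, and the transformed groups overlapped. Atf4 mRNA rose in Runx2ko by a log2 fold change of 0.73 (SE 0.21, adjusted p = 0.0431), and in Runx2wt its log2 fold change was 0.41 (SE 0.21, adjusted p = 0.211). Atf5, a related factor that is also translated when eIF2 is phosphorylated, was counted at 377, 574 and 400.0 CPM in Runx2ko, 269, 455 and 495 CPM in Runx2wt and 119, 114 and 99.4 CPM in BM progenitor. Every transformed library stood clear of the BM progenitor libraries. Atf5 rose by 2.02 in Runx2ko (SE 0.26, adjusted p = 0.00298) and by 1.87 in Runx2wt (SE 0.26, adjusted p = 0.00414), and it was the member that passed under every alternative tried in both comparisons.

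The stress regulators included the 3 largest fold changes of the arm in Runx2ko, those of Trib3, Chac1 and Ddit3. Trib3, a pseudokinase that feeds back on ATF4 and CHOP, was counted at 708, 302 and 213 CPM in Runx2ko, 96.0, 212 and 266 CPM in Runx2wt and 31.9, 39.9 and 36.3 CPM in BM progenitor. It rose by 3.50 in Runx2ko (SE 0.51, adjusted p = 0.00464) and by 2.41 in Runx2wt (SE 0.49, adjusted p = 0.0162), with no overlap of either group with BM progenitor. Ddit3, which encodes CHOP, the C/EBP-like factor tied to death under long stress, was counted at 178, 71.4 and 53.7 CPM in Runx2ko, 18.3, 53.8 and 60.9 CPM in Runx2wt and 14.8, 17.8 and 14.4 CPM in BM progenitor. It rose by 2.68 in Runx2ko (SE 0.54, adjusted p = 0.0135); the log2 fold change of 1.49 in Runx2wt (SE 0.52) did not pass (adjusted p = 0.0851), with Runx2wt replicate 1 close to BM progenitor. Chac1, an enzyme that breaks down glutathione, was counted at 70.2, 49.5 and 73.4 CPM in Runx2ko, 37.4, 40.2 and 15.6 CPM in Runx2wt and 8.21, 9.98 and 9.34 CPM in BM progenitor. The 3 groups did not overlap one another, and Chac1 rose by 2.81 in Runx2ko (SE 0.36, adjusted p = 0.00295) and by 1.76 in Runx2wt (SE 0.35, adjusted p = 0.015).

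Sesn2, or Sestrin 2, which holds back mTORC1 when leucine is low, was counted at 85.4, 40.9 and 39.8 CPM in Runx2ko, 25.0, 40.2 and 37.3 CPM in Runx2wt and 14.6, 20.2 and 15.3 CPM in BM progenitor. It rose by 1.73 in Runx2ko (SE 0.34, adjusted p = 0.0129) and its log2 fold change in Runx2wt was 1.03 (adjusted p = 0.0705). Ddit4, another inhibitor of mTORC1, was counted at 202, 33.3 and 52.8 CPM in Runx2ko, 24.5, 50.2 and 25.3 CPM in Runx2wt and 32.3, 32.6 and 20.4 CPM in BM progenitor. Only Runx2ko replicate 1 was far from the rest, and Ddit4 passed in neither comparison with BM progenitor. Nor did Nupr1, a stress-induced chromatin protein, or Ppp1r15a (GADD34), the phosphatase subunit that reverses eIF2 phosphorylation, whose log2 fold changes in Runx2ko were 1.23 and 1.46 (adjusted p = 0.0785 and 0.112).

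**Figure D2:**
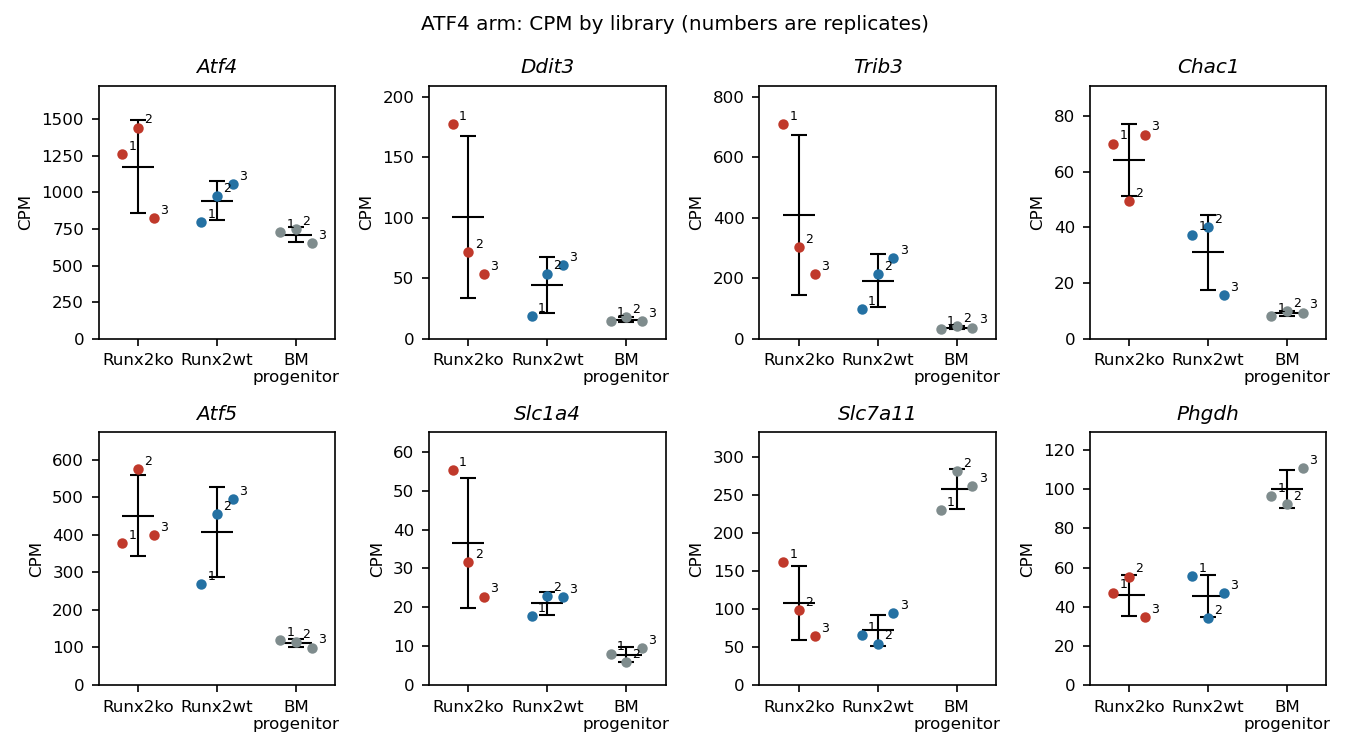
CPM of 8 ATF4 arm members in each library, with the replicate number beside each point and a bar for the mean and SD of 3 libraries, on axes that start at 0. Trib3, Chac1 and Atf5 lie above BM progenitor in every transformed library, Slc7a11 and Phgdh lie below it, and Ddit3 and Trib3 are highest in Runx2ko replicate 1.

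These regulators were highest in 1 library. Runx2ko replicate 1 was the highest of the 6 transformed libraries for 6 of the 7 stress regulators (Ddit3, Trib3, Sesn2, Ddit4, Nupr1 and Ppp1r15a, the exception being Chac1) and for 15 of the 28 members (53.6%), against 29.6% of all genes tested. The grouping by role was made after values were seen and carries no test. It held 3.82 times the CPM of the next highest transformed library for Ddit4 and 2.49 times for Ddit3. Its mast cell and basophil markers were also the highest, as given above, and its monocyte markers summed to 539 CPM against 4292 and 8399 CPM in the other Runx2ko libraries and 4855 to 12591 CPM in Runx2wt. Its erythroid markers summed to 846 CPM, against 29.1 and 40.4 CPM in the other Runx2ko libraries, 4.70 to 67.9 CPM in Runx2wt and 53.9 to 61.3 CPM in BM progenitor. Its megakaryocyte markers summed to 810.3 CPM, against 22.3 and 27.4 CPM in the other Runx2ko libraries, 19.9 to 64.0 CPM in Runx2wt and 72.0 to 73.5 CPM in BM progenitor. Its neutrophil markers, at 912 CPM, were the lowest of the 9 libraries. The part of these cell types in the stress regulators' values was not tested. Without this library, 11 members rose and 2 fell in Runx2ko against BM progenitor, with Asns joining those that rose, where 15.9% of genes rose and 12.6% fell. Trib3, Ddit3 and Chac1 then rose by 2.84, 2.00 and 2.74, and the log2 fold change of Ddit4 was 0.59.

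The enzymes of amino acid synthesis went different ways. Asns, or asparagine synthetase, was counted at 94.5, 149 and 138 CPM in Runx2ko, 135, 127 and 155 CPM in Runx2wt and 81.9, 90.9 and 80.1 CPM in BM progenitor. It rose by 0.72 in Runx2wt (SE 0.19, adjusted p = 0.0391) and its log2 fold change in Runx2ko was 0.60 (SE 0.19, adjusted p = 0.0604), with Runx2ko replicate 1 just above BM progenitor. Gpt2, the mitochondrial alanine transaminase, was counted at 97.7, 72.3 and 52.8 CPM in Runx2ko, 69.6, 53.8 and 50.4 CPM in Runx2wt and 26.5, 17.0 and 18.7 CPM in BM progenitor. It rose by 1.84 in Runx2ko (SE 0.28, adjusted p = 0.00538) and by 1.48 in Runx2wt (SE 0.27, adjusted p = 0.0124), and the groups stood clear of BM progenitor.

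Both proline enzymes of the list rose in Runx2ko. Aldh18a1, which makes the first committed intermediate, was counted at 62.8, 48.1 and 49.6 CPM in Runx2ko, 38.6, 30.8 and 33.7 CPM in Runx2wt and 30.8, 28.1 and 37.8 CPM in BM progenitor. Runx2wt overlapped BM progenitor, and Aldh18a1 rose in Runx2ko by 0.73 (SE 0.20, adjusted p = 0.0348). Pycr1, which completes proline, was counted at 29.1, 50.2 and 21.4 CPM in Runx2ko, 30.9, 26.1 and 29.8 CPM in Runx2wt and 17.5, 15.9 and 13.2 CPM in BM progenitor. It rose in Runx2ko by 1.12 (SE 0.31, adjusted p = 0.037), and its log2 fold change of 0.89 in Runx2wt did not pass (adjusted p = 0.08).

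None of the 5 listed enzymes of serine synthesis and mitochondrial one-carbon metabolism rose. Phgdh, the first enzyme of serine synthesis, was counted at 47.2, 55.4 and 34.7 CPM in Runx2ko, 55.5, 34.4 and 47.0 CPM in Runx2wt and 96.7, 92.5 and 111 CPM in BM progenitor. All 6 transformed libraries lay below BM progenitor, and Phgdh fell in Runx2ko (log2 fold change -1.13, SE 0.23, adjusted p = 0.0148) and in Runx2wt (-1.13, SE 0.23, adjusted p = 0.0172). The other 4, Psat1, Psph, Shmt2 and Mthfd2, had log2 fold changes of -0.68 to -0.14 in Runx2ko and -0.49 to -0.19 in Runx2wt, and none passed. Cth, which splits cystathionine to cysteine, ran from 11.3 to 40.3 CPM in Runx2ko, 7.48 to 44.2 CPM in Runx2wt and 8.36 to 10.2 CPM in BM progenitor and passed in neither comparison.

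Among 7 amino acid transporters, 1 rose and 1 fell in each comparison with BM progenitor, numbers near the shares of all genes (10% and 7.14% in Runx2ko, 8.28% and 5.23% in Runx2wt). Slc1a4, or ASCT1, a carrier of serine, alanine and other neutral amino acids, was counted at 55.3, 31.6 and 22.8 CPM in Runx2ko, 17.7, 23.0 and 22.5 CPM in Runx2wt and 8.03, 5.93 and 9.56 CPM in BM progenitor. It rose by 2.21 in Runx2ko (SE 0.35, adjusted p = 0.00664) and by 1.41 in Runx2wt (SE 0.35, adjusted p = 0.0318), every transformed library being above BM progenitor. Slc7a11, or xCT, which brings in cystine, was counted at 161, 98.0 and 64.8 CPM in Runx2ko, 66.0, 54.3 and 94.6 CPM in Runx2wt and 230.1, 281 and 261 CPM in BM progenitor. It fell in Runx2ko (log2 fold change -1.26, SE 0.32, adjusted p = 0.0292) and in Runx2wt (-1.85, SE 0.33, adjusted p = 0.0108). Its promoter holds a pair of the CARE matches printed above. Slc7a5, Slc3a2, Slc7a1, Slc1a5 and Slc38a2, carriers or partners for large neutral, cationic and small neutral amino acids, had log2 fold changes of -0.04 to 0.38 in Runx2ko and -0.58 to 0.11 in Runx2wt and did not pass. Neither did Eif4ebp1, a repressor of cap-dependent translation, or Vldlr, a lipoprotein receptor that had 0 to 16.5 CPM over the 9 libraries.

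The calls of the arm depended on single libraries, as did those over all genes. Leaving out 1 library gave 405 to 3311 genes in Runx2ko and 209 to 3256 in Runx2wt, against BM progenitor. Both numbers were lowest without BM progenitor replicate 3 and highest without Runx2ko replicate 1. The share of all genes that passed thus changed with the library left out. The numbers of members below therefore cannot be read against 1 common share. In Runx2ko against BM progenitor, the number that passed was 5, 6 and 5 without BM progenitor replicates 1, 2 and 3, 10, 9 and 10 without the Runx2wt replicates, and 13, 11 and 11 without the Runx2ko replicates. Without Runx2ko replicate 3, 10 rose, where 6.58% of genes rose, and 1 fell, where 4.44% did; Slc7a11 and Aldh18a1 no longer passed (adjusted p = 0.0585 and 0.0531) and Nupr1 did. Trib3, Chac1, Slc1a4, Gpt2 and Atf5 passed under all 16 alternatives, and Atf4 under 5 of 16 (adjusted p 0.015 to 0.15). In Runx2wt against BM progenitor, the numbers were 3, 1 and 2 without the BM progenitor replicates, 7, 2 and 6 without the Runx2wt replicates and 12, 9 and 9 without the Runx2ko replicates, which bear on that comparison only through the shared spread. Without Runx2ko replicate 1, 9 rose and 3 fell in Runx2wt, where 15.9% and 12.1% of genes did, and Ddit3, Pycr1 and Sesn2 joined those that rose and Slc3a2 those that fell. Without Runx2ko replicate 3, 7 rose and 2 fell in Runx2wt, where 9.77% and 7.7% of genes did. Counting members whose groups did not overlap instead, 16 were higher and 5 lower in Runx2ko, where 19.5% and 18.8% of all genes were, and 10 were higher and 4 lower in Runx2wt, where 24.8% and 24.5% were.

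The ER arm was not raised as a whole in transformed cells. In Runx2ko against BM progenitor 2 of 17 members rose and none fell, and in Runx2wt against BM progenitor 1 rose and none fell, beside the shares of all genes given above. The number in Runx2wt depended on the spread of the Runx2ko libraries, which the fit shares, as given below. Unadjusted p was under 0.05 for 3 members in Runx2ko and 5 in Runx2wt, as it was for 3746 and 3558 of 11196 genes. DESeq2 called 3 members higher in Runx2ko, where it called 13.6% of genes higher and 10.4% lower. In Runx2wt, DESeq2 called 2 members higher and 2 lower, where the shares of genes were 12.6% and 8.96%. The median log2 fold change was 0.09 in Runx2ko and -0.36 in Runx2wt.

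Ern1, which encodes the sensor IRE1α, was the member that passed in both. It was counted at 133, 69.7 and 72.6 CPM in Runx2ko, 53.2, 65.4 and 95.1 CPM in Runx2wt and 27.6, 21.0 and 28.7 CPM in BM progenitor, with every transformed library above BM progenitor. It rose by 1.83 in Runx2ko (SE 0.31, adjusted p = 0.00811) and by 1.46 in Runx2wt (SE 0.31, adjusted p = 0.0192). The call in Runx2wt was lost without any of the BM progenitor libraries or without Runx2wt replicate 2 or 3 (adjusted p 0.0559 to 0.0889), and that in Runx2ko held under all 16 alternatives. Xbp1, whose mRNA IRE1α splices, was counted at 438, 606 and 501 CPM in Runx2ko, 554, 570.4 and 343 CPM in Runx2wt and 259, 329 and 343 CPM in BM progenitor. Its log2 fold changes of 0.73 in Runx2ko (SE 0.22, adjusted p = 0.0524) and 0.66 in Runx2wt (SE 0.22, adjusted p = 0.0795) fell short of the threshold.

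The other sensors stayed near BM progenitor. Atf6 was counted at 58.5, 42.1 and 75.1 CPM in Runx2ko, 41.0, 43.0 and 66.8 CPM in Runx2wt and 60.8, 58.3 and 66.7 CPM in BM progenitor, and its log2 fold changes were -0.08 and -0.30. Eif2ak3, which encodes PERK, was counted at 13.6, 19.2 and 26.8 CPM in Runx2ko, 19.4, 14.4 and 11.1 CPM in Runx2wt and 18.1, 16.2 and 14.0 CPM in BM progenitor, with log2 fold changes of 0.31 and -0.10. The groups overlapped for both genes, and neither passed.

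The ER chaperones turned on 1 library. Hspa5, or BiP, the main ER chaperone and the one that holds the sensors inactive, was counted at 2195, 1907 and 4812 CPM in Runx2ko, at 1644, 1474 and 1822 CPM in Runx2wt and 2527, 2594 and 2594 CPM in BM progenitor. Runx2wt lay below BM progenitor in every library, as did Runx2ko replicates 1 and 2, whereas Runx2ko replicate 3 was the highest of all. The log2 fold change was 0.21 in Runx2ko (SE 0.31, adjusted p = 0.674) and -0.64 in Runx2wt (SE 0.31, adjusted p = 0.181).

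The same order was seen in chaperones of other kinds. Hsp90b1, or GRP94, an HSP90 of the ER, was counted at 586, 610.3 and 1585 CPM in Runx2ko, 764, 599.7 and 585 CPM in Runx2wt and 941, 924 and 965 CPM in BM progenitor. Pdia6, a disulphide isomerase, was counted at 483, 508 and 1593 CPM in Runx2ko, 647, 529 and 485 CPM in Runx2wt and 869, 905 and 795 CPM in BM progenitor. In both, the single Runx2ko library above BM progenitor was replicate 3. Creld2, an ER-resident protein induced by ER stress, was counted at 12.9, 16.7 and 62.9 CPM in Runx2ko, 22.0, 15.2 and 18.6 CPM in Runx2wt and 43.1, 49.4 and 55.4 CPM in BM progenitor. Manf, a secreted and ER-resident survival factor, was counted at 223, 226 and 836 CPM in Runx2ko, 325, 256 and 227 CPM in Runx2wt and 446, 435 and 421 CPM in BM progenitor. Sdf2l1, a partner of BiP, was counted at 28.5, 80.5 and 269.7 CPM in Runx2ko, 104, 62.4 and 64.8 CPM in Runx2wt and 121, 130.3 and 117 CPM in BM progenitor. In each of these, 5 transformed libraries lay below BM progenitor and Runx2ko replicate 3 lay above it.

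**Figure D3:**
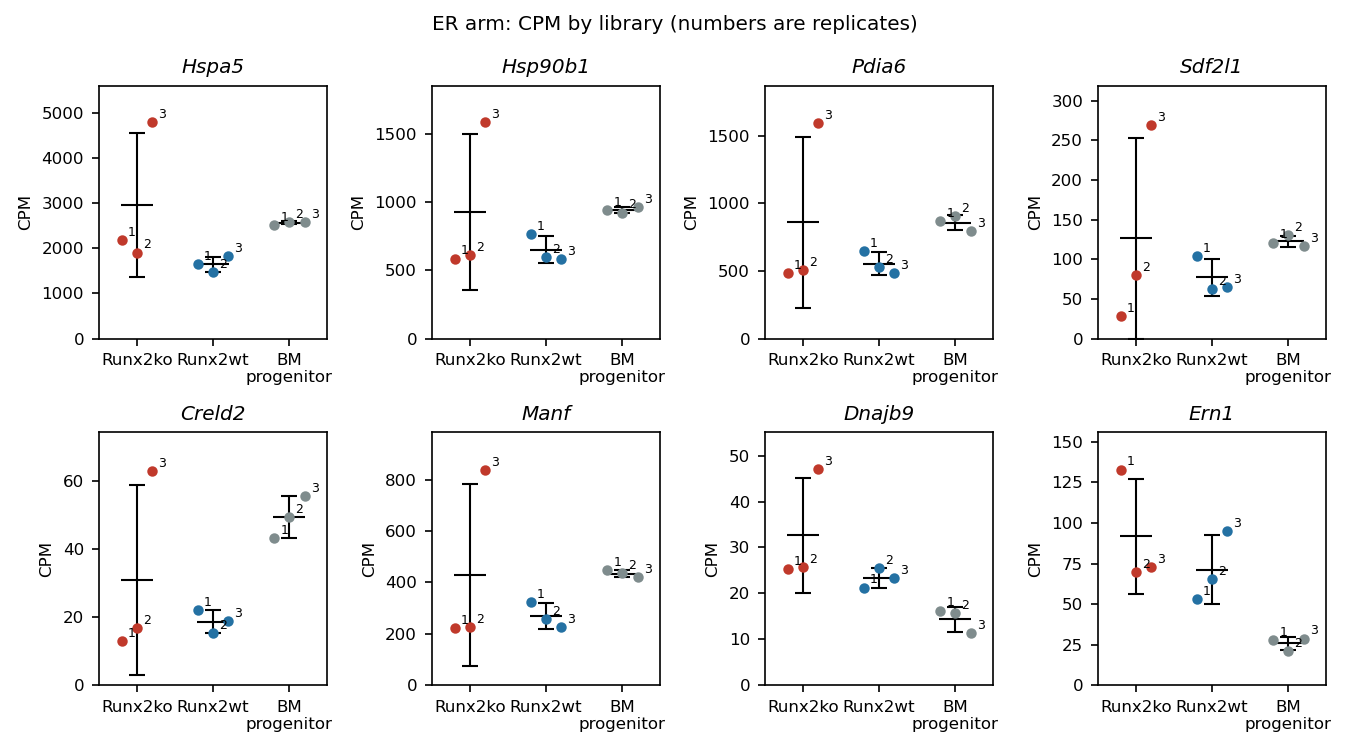
CPM of 8 ER arm members in each library, with the replicate number beside each point and a bar for the mean and SD of 3 libraries, on axes that start at 0. Runx2ko replicate 3 is the highest point for Hspa5, Hsp90b1, Pdia6, Sdf2l1, Creld2, Manf and Dnajb9, and Runx2ko replicate 1 for Ern1.

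Runx2ko replicate 3 was the highest of the 6 transformed libraries for 15 of 17 ER arm members (88.2%), Xbp1 and Ern1 being the exceptions, and it was the highest of the 6 for 17.3% of all genes tested. It was the highest for all 11 chaperones and folding factors, a role group made after values were seen, and the highest of all 9 libraries for 10 of them, Calr being lower than in BM progenitor replicate 1. The 17 members summed to 13356 CPM there, against 6330 and 5539 CPM in Runx2ko replicates 1 and 2, 4981 to 6462 CPM in Runx2wt and 8081 to 8289 CPM in BM progenitor. Over the Runx2wt mean, this library held 3.50 times the CPM for Sdf2l1, 3.37 times for Creld2, 3.11 times for Manf and 2.92 times for Hspa5. For the ATF4 arm it was the highest of the 6 for 1 of 28 members, Chac1. These are values of 1 library and carry no test.

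Markers of other cell types and of the cell cycle were set beside this library, those of plasma cells because such cells hold much ER. The 13 plasma cell and B cell markers summed to 171 CPM in Runx2ko replicate 3, 161 and 793 CPM in replicates 1 and 2, 58.1 to 165 CPM in Runx2wt and 87.4 to 161 CPM in BM progenitor. The sum in Runx2ko replicate 3 lay above those of every Runx2wt and BM progenitor library. Of the 13, Tnfrsf17 was at 0 in every transformed library and Mzb1 was at 1.63 CPM in Runx2ko replicate 3, both markers of plasma cells. These genes do not stand for the list, and the part of such cells in the ER values was not tested. The 12 cell cycle genes of a marker list summed to 883 CPM in this library, the lowest of all, against 1089 and 1893 CPM in the other Runx2ko libraries, 1498 to 2619 CPM in Runx2wt and 3335 to 3804 CPM in BM progenitor. The 12 neutrophil markers summed to 10654 CPM in Runx2ko replicate 3, the highest of the 6 transformed libraries, against 912 and 6204 CPM in replicates 1 and 2, 1756 to 4544 CPM in Runx2wt and 12240.0 to 16558 CPM in BM progenitor. The part of cell cycle state or of neutrophil-like cells in the ER values was not tested.

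The calls of the ER arm changed with that library. Without Runx2ko replicate 3, 1 member rose and 4 fell in Runx2ko against BM progenitor, beside the shares of all genes given above for that fit. Those that fell were Hsp90b1, Pdia6, Creld2 and Manf, with log2 fold changes of -0.66, -0.79, -1.72 and -0.96 (adjusted p = 0.0353, 0.0236, 0.00898 and 0.0182). In Runx2wt, whose own values do not change by leaving it out, 1 rose and 5 fell, where 9.77% of genes rose and 7.7% fell. Those that fell were Hspa5, Hsp90b1, Pdia6, Creld2 and Manf, with log2 fold changes of -0.64, -0.54, -0.63, -1.40 and -0.69. Without Runx2ko replicate 1, 4 members rose and none fell in Runx2ko, Xbp1 and Herpud1 joining Ern1 and Dnajb9, where 15.9% of genes rose and 12.6% fell. In Runx2wt 2 rose in that fit, Ern1 and Xbp1, and 2 fell, Creld2 and Calr, where 15.9% of genes rose and 12.1% fell. By groups that did not overlap, 3 members were higher in Runx2ko and none lower, while 4 were higher and 9 lower in Runx2wt. Over all genes these shares were 19.5% higher and 18.8% lower in Runx2ko and 24.8% higher and 24.5% lower in Runx2wt, so that the members' share was near them for higher levels in both comparisons. All 9 that were lower in Runx2wt were chaperones or folding factors: Hspa5, Hsp90b1, Pdia6, Dnajc3, Sdf2l1, Creld2, Manf, Hyou1 and Calr.

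Dnajb9, or ERdj4, a cochaperone of BiP and a known target of XBP1, differed from the other chaperones in that it lay above BM progenitor in all transformed libraries. It was counted at 25.2, 25.7 and 47.2 CPM in Runx2ko, 21.3, 25.5 and 23.4 CPM in Runx2wt and 16.2, 15.6 and 11.3 CPM in BM progenitor. It rose by 1.18 in Runx2ko (SE 0.29, adjusted p = 0.0257), a call lost without Runx2ko replicate 3 (log2 fold change 0.82, adjusted p = 0.0613), and its log2 fold change in Runx2wt was 0.70 (adjusted p = 0.134). The call was also lost without each BM progenitor replicate, at an adjusted p of 0.0703, 0.0821 and 0.113. In those fits 1 ER arm member, Ern1, passed in Runx2ko, and none passed in Runx2wt. Without BM progenitor replicate 3, 405 genes passed in Runx2ko and 209 in Runx2wt, the fewest of any fit that left out 1 library. No ER arm member passed in Runx2wt without Runx2wt replicate 2 either, and without Runx2wt replicate 3 the number of members that rose in Runx2ko was 3. Edem1, which hands misfolded glycoproteins to degradation, Pdia4, an isomerase, and Dnajc3, an inhibitor of PERK, passed in no comparison.

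The spread among libraries of a group was widest for the ER arm in Runx2ko. The median coefficient of variation of its members was 57.7% in Runx2ko, 18.6% in Runx2wt and 6.99% in BM progenitor. For the ATF4 arm it was 31.0%, 22.2% and 9.69% in the same groups, and over all genes tested it was 30.4%, 20.5% and 13.8%.

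In Runx2ko against Runx2wt, the comparison that bears on loss of Runx2, no member of either arm passed. No gene of the 11196 did (0% higher and 0% lower), although 886 had an unadjusted p under 0.05, and the smallest adjusted p was 0.442. DESeq2 called 0.289% of genes higher and 0.126% lower, none of them a member. In the ATF4 arm, 23 of 28 members had a positive log2 fold change, beside 51.4% of all genes, with a median of 0.36, and 7 had an unadjusted p under 0.05. In the ER arm all 17 were positive, with a median of 0.51, and 2 had an unadjusted p under 0.05. Without Runx2ko replicate 1 the median was 0.23 in the ATF4 arm and 0.70 in the ER arm, and without Runx2ko replicate 3 it was 0.53 and 0.00, with 8 of 17 ER arm members positive.

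The members whose Runx2ko libraries all lay above all Runx2wt libraries were Chac1, Aldh18a1 and Slc3a2 in the ATF4 arm and Hspa5 and Herpud1 in the ER arm, beside 4.95% of all genes higher and 4.73% lower without overlap; no member was lower. The log2 fold changes were 1.05 for Chac1 (SE 0.33, adjusted p = 0.579), 0.64 for Aldh18a1 (SE 0.20, adjusted p = 0.579) and 0.85 for Hspa5 (SE 0.31, adjusted p = 0.579), from the levels given above. Slc3a2, the heavy chain that xCT and LAT1 need at the cell surface, was counted at 987, 577 and 592 CPM in Runx2ko, 458, 529 and 498 CPM in Runx2wt and 711, 769 and 740.2 CPM in BM progenitor. Its Runx2wt libraries were the lowest of the 9, and its log2 fold change was 0.54 (SE 0.21, adjusted p = 0.582). Herpud1, a membrane protein of ER-associated degradation, was counted at 320.2, 346 and 547 CPM in Runx2ko, 279, 282 and 252 CPM in Runx2wt and 312, 326 and 240.2 CPM in BM progenitor, with a log2 fold change of 0.58 (SE 0.22, adjusted p = 0.58). Ddit4, Ddit3, Trib3 and Slc1a4, whose groups overlapped, had log2 fold changes of 1.52, 1.19, 1.09 and 0.79 (adjusted p = 0.585, 0.607, 0.607 and 0.607), which were 0.37, 0.51, 0.43 and 0.37 without Runx2ko replicate 1. That of Hspa5 was 0.32 without Runx2ko replicate 3.

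**Figure D4:**
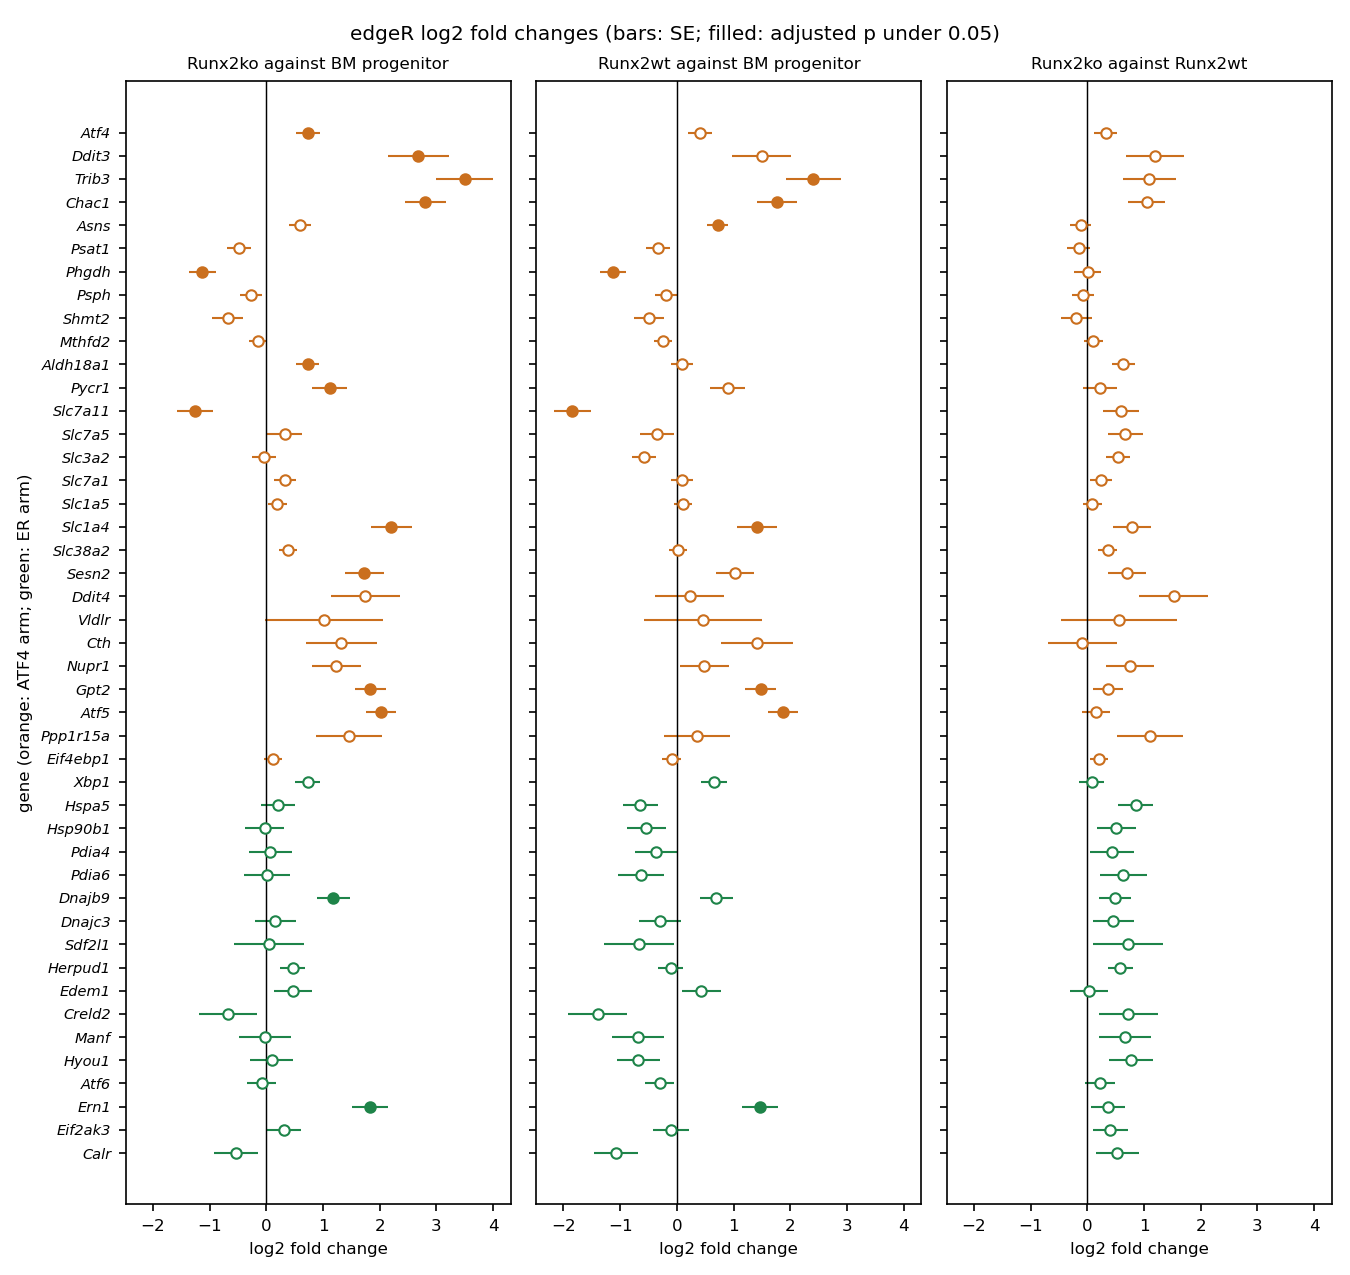
edgeR log2 fold changes of the 45 tested members with their SE, in Runx2ko against BM progenitor, Runx2wt against BM progenitor and Runx2ko against Runx2wt, with ATF4 arm members above ER arm members and filled points for an adjusted p under 0.05. There are 14 filled points in the first panel, 9 in the second and none in the third.

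Further genes of the same pathways were read from lists beyond the members, and the shares to set beside their counts are those of all genes, 10% risen and 7.14% fallen in Runx2ko and 8.28% risen and 5.23% fallen in Runx2wt, against BM progenitor. Of 16 tested genes for the eIF2 kinases and the eIF2 and eIF2B complexes, 1 rose and 1 fell in Runx2ko against BM progenitor, Eif2b2 (log2 fold change 0.86) and Eif2b3 (-0.75), and in Runx2wt 1 rose, Eif2b2 (1.30). These numbers were near the shares of all genes. Of 26 tested further partners and targets of ATF4, 7 rose and 5 fell in Runx2ko, and 3 rose and 3 fell in Runx2wt. Of these, the number that rose in Runx2wt was near the share of all genes. The one of these that rose most in both was Stc2, a secreted glycoprotein induced by ER stress, with mean levels of 77.1 ± 38.1 CPM (Runx2ko), 68.1 ± 7.29 CPM (Runx2wt) and 14.0 ± 1.65 CPM (BM progenitor), each with its SD over 3 libraries. It rose by 2.47 in Runx2ko (adjusted p = 0.0031) and by 2.28 in Runx2wt (adjusted p = 0.00431). Slc43a1, a carrier of branched-chain amino acids, fell in Runx2ko (log2 fold change -3.47) and in Runx2wt (-2.89), and Osgin1, a growth inhibitor induced by oxidative stress, fell too (-2.02 and -1.47). Aldh1l2, a mitochondrial folate enzyme, was counted at 23.9, 8.56 and 6.50 CPM in Runx2ko, 6.77, 6.10 and 12.0 CPM in Runx2wt and 3.65, 3.51 and 1.70 CPM in BM progenitor. It rose by 2.12 in Runx2ko (adjusted p = 0.0368), a call lost without Runx2ko replicate 1 (log2 fold change 1.35, adjusted p = 0.058).

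Of 15 tested genes of ER-associated degradation, the same 4 rose in both comparisons and none fell: Sel1l, Derl1, Os9 and Herpud2. Sel1l, the scaffold of the HRD1 ubiquitin ligase, was counted at 286, 366 and 524 CPM in Runx2ko, 280.3, 322 and 348 CPM in Runx2wt and 181, 175 and 176 CPM in BM progenitor, and its log2 fold changes were 1.15 and 0.84. Of 17 tested further folding enzymes and lectins, 3 rose and none fell in Runx2ko (Ero1l 2.01, Sil1 1.37 and Sdf2 0.92), and 3 rose and 2 fell in Runx2wt, the farthest being Txndc5 (-1.71) and Dnajc10 (1.58). Ero1l, an oxidase that forms disulphides in the ER, was at 599 CPM in Runx2ko replicate 1 against 237 and 149.6 CPM in replicates 2 and 3, and its log2 fold change was 1.25 without replicate 1 (adjusted p = 0.00165). Of 16 translocon and signal peptidase genes, 1 rose in Runx2ko, Ssr4 (0.73), and none in Runx2wt. The translocon number in Runx2ko was near the share of all genes. Of 8 tested other ER stress transducers, 3 rose in Runx2ko and 1 in Runx2wt, the latter near the share of all genes, and none fell. Creb3l1, a stress transducer cleaved like ATF6, rose in both, by 2.41 in Runx2ko and 2.72 in Runx2wt. Mbtps1 and Mbtps2, the proteases that cleave ATF6, rose in Runx2ko by 0.64 and 0.72. Without Runx2ko replicate 1, 7 of the further ATF4 genes rose and 5 fell in Runx2ko against BM progenitor, 5 folding enzymes rose, 4 degradation genes rose and 2 translocon genes rose, where 15.9% of all genes rose and 12.6% fell. Without Runx2ko replicate 3, 5 further ATF4 genes rose and 4 fell, 2 folding enzymes rose and 1 fell, 3 degradation genes rose, 2 translocon genes fell, and no gene of the eIF2 list passed, where 6.58% of all genes rose and 4.44% fell. Of the genes named here, Eif2b3 and Mbtps2 also lost their calls in Runx2ko without replicate 1, and Eif2b2, Eif2b3, Sdf2, Ssr4, Mbtps2 and Creb3l1 without replicate 3 (adjusted p 0.0524 to 0.111). No gene of these lists passed in Runx2ko against Runx2wt. Runx2ko replicate 3 was again the highest of the 6 transformed libraries for 13 of 16 translocon genes and 12 of 17 folding enzymes, and for 6 of 15 degradation genes.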

How the data were processed

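The deposited files were a table of raw read counts by Ensembl identifier for 9 libraries, and a table of the authors' normalized values that equalled those counts divided by 1 constant per library. The submitters' processing notes name FastQC, STAR, DESeq2 and GRCm38. Tool versions, the program that counted reads and its strand setting were not given in the sources used here, so overlapping genes and processed copies may share reads. Symbols came from a GENCODE table and matched 21042 of 21159 identifiers. The deposited counts, 3118594 to 5348177 per library, were analysed by edgeR 4.0.16 under R 4.3.3 (quasi-likelihood F-test, TMM, filterByExpr leaving 11196 genes, all groups sharing 1 spread, Benjamini-Hochberg adjusted p under 0.05). The SE of a log2 fold change was derived from the F statistic, and CPM used TMM-scaled library sizes. P-values measure the spread between these libraries. The 16 alternatives were: DESeq2 1.42.0, RLE factors, 2 other filters, limma 3.58.1 on log2 of the normalized values plus 1, the compared libraries alone, a replicate block, and leaving out each of 9 libraries. In simulated data the fit recovered few small changes. For 2-fold changes, 14% were recovered in Runx2ko against Runx2wt, and 5.1% (Runx2ko) and 8.8% (Runx2wt) against BM progenitor. For 4-fold changes these shares were 62.7%, 58% and 69.4%. In each simulation 57 to 83 of 11196 genes were changed at each fold, far fewer than passed against BM progenitor. Recovery after the adjustment depends on how many genes change, so these shares may be too low for the comparisons with BM progenitor. The members, the further lists and the marker lists were chosen with earlier results of these data known. Values in every library are given for the transducers, Atf4, Ddit3 and Hspa5, every member that passed in a comparison, and those with an unadjusted p under 0.05 or no overlap in Runx2ko against Runx2wt. Hsp90b1, Pdia6, Creld2, Manf and Sdf2l1 were added after their values were seen. Up to 3 genes of each further list are named per comparison, the farthest of those that passed, and not all of these are printed. Promoter sequences are those of RefSeq for GRCm38.p6.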

Additional observations from a re-analysis of the deposited data

How the results depend on the processing

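Runx2wt against BM progenitor gave 1513 genes in all, and Runx2ko against BM progenitor 1924. With only the compared libraries, Runx2wt against BM progenitor gave 3679 genes, and Runx2ko against BM progenitor 1262 genes. Dropping Runx2ko narrows the spread of Runx2wt and BM progenitor. Of 28 ATF4 arm and 17 ER arm members, 13 and 11 then passed in Runx2wt, against 8 and 1. The low number of ER arm calls in Runx2wt thus depended on the spread of the Runx2ko libraries. In the main fit 4 of the 17 had a positive log2 fold change in Runx2wt. DESeq2 gave 2390 genes and 4 ER arm members in Runx2wt against BM progenitor and 46 genes in Runx2ko against Runx2wt, against 0 by edgeR. With a replicate block the counts were 922 genes in Runx2wt and 1120 genes and 1 ER arm member in Runx2ko, against BM progenitor. No pairing by number was seen. Deviations of same-numbered libraries correlated at -0.071 to 0.074 and those of differently numbered libraries at -0.122 to 0.151. With 3 libraries per group this cannot exclude a paired design. Leaving out 1 library gave 209 to 3256 genes, 1 to 12 ATF4 arm and 0 to 6 ER arm members in Runx2wt against BM progenitor, 405 to 3311 genes, 5 to 13 and 1 to 5 members in Runx2ko against BM progenitor, and 0 to 5 genes and 0 members of either arm in Runx2ko against Runx2wt. The 49 member fold changes with an unadjusted p under 0.05 were recomputed under 16 alternatives, a choice that favours a stable direction. Of these 784 values, none reversed direction, 662 kept their side of the threshold, 85 lost it and 37 gained it, and the cause was not tested. Fold changes outside this choice did reverse. Sdf2l1 in Runx2ko against Runx2wt went from a log2 fold change of 0.71 to -0.49 without Runx2ko replicate 3.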
